A study of Mus musculus with 12 samples.

Results

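The 8 genes described here encode ligands and receptors of the interleukin-6 (IL-6) family. Il6, Lif, Osm and Il11 encode secreted cytokines, and Il6ra, Il6st, Lifr and Osmr encode receptor chains. They were chosen by name, and each was read by 1 probe set, a group of array probes summarised to 1 value, whose annotation carries that symbol alone. All 8 of 8 entered the fit, among 19938 genes tested.

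Peritoneal macrophages of female mice were profiled on 12 one-colour arrays, 3 in each of 4 groups. The groups were Nfkbiz-/- cells with lipopolysaccharide (LPS), C57Bl/6 (wild-type) cells with LPS, untreated Nfkbiz-/- cells and untreated wild-type cells. LPS, a bacterial cell-wall component sensed by Toll-like receptor 4, was given at 1 µg/ml for 4 h to cells flushed from the peritoneal cavity and cultured for 2 h beforehand. Nfkbiz encodes IκBζ, a nuclear IκB protein that binds NF-κB subunits on certain promoters. The labels give no age, no construct behind the Nfkbiz-/- allele, and no cell sort. They do not say whether replicates are different mice, so a p-value here reflects array-to-array spread that could be technical in origin.

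IL-6 family cytokines signal through gp130, the protein encoded by Il6st. IL-6 and IL-11 first bind their own alpha receptors, whereas LIF and oncostatin M (OSM) bring gp130 together with the LIF receptor or the OSM receptor. The assembled receptors activate JAK kinases and the transcription factor STAT3, which in turn induces the inhibitor SOCS3. Macrophages are a well-known source of IL-6 and OSM, and IL-6 drives the acute-phase response of the liver.

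The genotype labels were checked at the targeted gene. After LPS, Nfkbiz intensity was 1568, 1335 and 1634 in knockout cells, against 3371, 3786 and 3079 in wild-type cells, without overlap. Untreated knockout cells had 266.9, 285.6 and 274.4, so the Nfkbiz signal still rose with LPS in the knockout (2.45 on the log2 scale, limma adjusted p = 2.41e-08), and with LPS it was 2.26-fold lower than in wild type. The labels do not place its probes relative to the deleted stretch, so the check shows a lower signal and not the deletion itself. All 9 of 9 macrophage markers were measured, and their summed intensity lay between 51657 and 61270 on the 12 arrays. Within that list Timd4, a marker of resident macrophages, read 719, 2608 and 1156 in LPS-treated knockout cells, against 326, 384 and 372 in wild-type cells, and 313, 1646 and 407 in untreated knockout cells, against 290, 163 and 175 in wild-type cells. Gata6, a regulator of peritoneal macrophages, read 1570, 726 and 1240 in LPS-treated knockout cells, against 1729, 1723 and 2457 in wild-type cells. Without LPS the direction was the reverse, at 1907, 1783 and 1933 in knockout cells, against 1397, 1263 and 1598 in wild-type cells. With LPS, knockout replicate 2 was the highest of its group for Timd4 and the lowest for Gata6, and their part in the results was not tested. Of the 5 mast cell markers, Mcpt4 and Cpa3 in particular were brighter in part of the knockout arrays: the list summed to 876, 419 and 1577 in LPS-treated knockout cells, against 398 to 578 in LPS-treated wild-type cells. The untreated sums were 866, 549 and 1821 in knockout cells and 473 to 569 in wild-type cells. Both knockout arrays numbered 2 stood apart from the others of their groups. With LPS, 388 genes on knockout replicate 2 lay over 2-fold from the mean of the other replicates, and without LPS 220 did, against 15 to 198 genes on the remaining 10 arrays. Knockout replicate 2 was the lowest of its group for 6 of the 8 family genes with LPS and for 8 of 8 without, whereas it was lowest for 30.8% and 34.7% of all genes. Main results for the family genes are therefore given with and without these arrays. Leaving both out was chosen after seeing the data and removes values that deviate, so calls gained that way are not independent tests.

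The promoters of Il6 and Lif, the family genes with the highest LPS response, are shown with that of Il6ra, which had the lowest. Each line gives the 250 bases before the transcription start from RefSeq (build GRCm38.p6), 5′ to 3′, and capitals mark matches to 4 motifs searched on both strands. These were the κB motif bound by NF-κB, a C/EBP motif (TTNNGNAAT), an AP-1 motif (TGANTCA) and a STAT motif (TTCNNNGAA).
Il6, chr5:30012864-30013113, plus strand: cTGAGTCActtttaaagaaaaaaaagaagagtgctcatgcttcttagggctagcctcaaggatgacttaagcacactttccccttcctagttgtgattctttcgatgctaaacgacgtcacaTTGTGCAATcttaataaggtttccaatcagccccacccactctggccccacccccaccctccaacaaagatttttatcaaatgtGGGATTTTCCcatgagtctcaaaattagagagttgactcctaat
Lif, chr11:4257318-4257567, plus strand: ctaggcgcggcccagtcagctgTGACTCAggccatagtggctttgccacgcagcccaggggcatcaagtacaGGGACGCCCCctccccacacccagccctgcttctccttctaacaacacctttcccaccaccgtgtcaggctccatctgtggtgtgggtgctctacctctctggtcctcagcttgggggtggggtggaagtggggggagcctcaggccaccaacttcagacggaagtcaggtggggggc
Il6ra, chr3:89913197-89913446, minus strand: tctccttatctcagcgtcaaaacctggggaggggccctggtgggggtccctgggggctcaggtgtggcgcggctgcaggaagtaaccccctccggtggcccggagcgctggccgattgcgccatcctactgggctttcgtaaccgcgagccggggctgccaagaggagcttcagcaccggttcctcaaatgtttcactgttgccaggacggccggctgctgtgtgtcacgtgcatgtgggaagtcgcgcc
In the Il6 window the κB match GGGATTTTCC began 44 bases before the start, the C/EBP match TTGTGCAAT began at 128 and the AP-1 match TGAGTCA at 249. The Lif window held the κB match GGGACGCCCC at 178 bases before the start and the AP-1 match TGACTCA at 228. No match overlapped another, and the Il6ra window held none. Among 32851 promoter windows of the same length, 7.25% held the κB motif, 10.2% the C/EBP motif, 6.75% the AP-1 motif and 7.02% the STAT motif. Sequences were found for 7 of the 8 genes, Osm being the other one. The single windows of Il6st and Osmr and both windows of Lifr held none of the 4 motifs, and 1 of the 2 Il11 windows held an AP-1 match. A match describes letters only and is not a measured binding site.

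LPS raised the ligand genes Il6, Lif and Osm and the receptor genes Lifr and Osmr in both genotypes, and lowered Il6ra and Il6st in both. In knockout cells 6 of the 8 genes rose and 2 fell, at a Benjamini-Hochberg adjusted p under 0.05 in limma over all genes tested, the rule used for every call here. In wild-type cells 5 rose, 2 fell and Il11 did not pass. Over all genes, 45.7% were called in knockout cells (21.9% higher, 23.8% lower) and 28.1% in wild-type cells (9.53% higher, 18.5% lower). LPS-treated and untreated arrays did not overlap for 7 of the 8 genes in knockout, Lifr being the exception, and for all 8 in wild type. Over all genes that share was 53.7% in knockout (28.3% higher, 25.5% lower) and 47.5% in wild type (23.2% higher, 24.3% lower). The median log2 difference of the 8 genes was 1.75 in knockout and 1.84 in wild type, against 0.07 and 0.04 over all genes tested. Signal near background limits some of these values. The 95th percentile of 1027 olfactory receptor genes, used as a yardstick of dim signal, lay between 90.7 and 116.0 by array. On the 6 untreated arrays it was exceeded 2 times by Il6, 1 time by Lif, 2 times by Osmr and 0 times by Il11, and on all 6 by the other family genes. The LPS differences of Il6, Lif and Osmr are therefore differences of measured intensity from a level near background, and lower bounds on the change of the transcript, so the difference of their responses is not exact either. More or fewer cells of a type and more or less RNA per cell cannot be told apart in these bulk samples.

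Il6 encodes the cytokine that names the family. Its intensity was 7572, 4514 and 9119 in LPS-treated knockout cells, against 72.6, 39.5 and 91.2 in untreated knockout cells. In wild type it was 11196, 12086 and 10081 with LPS and 94.7, 71.7 and 146.5 without. The LPS and untreated arrays were far apart in both genotypes. The LPS response was a log2 difference of 6.73 in knockout (SE 0.34, limma adjusted p = 1.2e-07) and 6.80 in wild type (SE 0.34, limma adjusted p = 1.32e-07). These responses differed by -0.07 (knockout minus wild type, 95% interval -1.11 to 0.97, limma adjusted p = 0.972). That difference was between -0.42 and 0.23 when 1 array was left out, so its sign depended on single arrays. Without both knockout replicate 2 arrays the knockout response was 6.67 (limma adjusted p = 1.08e-07). With LPS the knockout intensities were all under the wild-type ones, but the log2 difference of -0.71 did not pass (95% interval -1.45 to 0.03, limma adjusted p = 0.248). Without both knockout replicate 2 arrays it was -0.42 (limma adjusted p = 0.357). In untreated cells, where Il6 was near background, the genotype difference was -0.64 (95% interval -1.38 to 0.09, limma adjusted p = 0.629). The difference of responses sets the LPS value against this dim one.

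Lif encodes leukemia inhibitory factor and was the 1 family gene called between genotypes over all 12 arrays. LPS-treated knockout cells had intensities of 1332, 435.9 and 1655, against 4092, 4381 and 3978 in LPS-treated wild-type cells. The knockout arrays all lay below the wild-type arrays and differed 3.80-fold among themselves. Untreated levels were 84.5, 74.5 and 84.1 in knockout, against 101.8, 96.4 and 86.6 in wild type, close together although the ranges did not overlap. With LPS the log2 difference between genotypes was -2.07, or 4.20-fold lower in knockout (SE 0.36, limma adjusted p = 0.00566). In untreated cells it was -0.23 (95% interval -1.02 to 0.56, limma adjusted p = 0.889). With the knockout replicate 2 arrays left out, the LPS value was -1.48 (SE 0.11, limma adjusted p = 4.72e-05), so it stayed called at a smaller size. LPS raised Lif by 3.61 in knockout (SE 0.36, limma adjusted p = 1.26e-05) and 5.45 in wild type (SE 0.36, limma adjusted p = 9.67e-07). The difference of these responses was -1.84 (SE 0.51, limma adjusted p = 0.138) and did not pass. Without LPS-treated knockout replicate 2 alone it was -1.25 (limma adjusted p = 0.00347), and without both knockout replicate 2 arrays it was -1.31 (limma adjusted p = 0.0037), each past the threshold. The knockout response of Lif was 4.14 without both arrays (limma adjusted p = 2.74e-08). All of these use untreated Lif intensities near background.

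Osm encodes oncostatin M, and by RefSeq gene order (GRCm38.p6) it is the direct neighbour of Lif, with 0 annotated genes between them. In LPS-treated cells its intensity was 4950, 1316 and 5162 in knockout, against 4853, 5527 and 4153 in wild type. Knockout replicates 1 and 3 lay within or near the wild-type range, and replicate 2 lay far below it. Untreated knockout cells read 604.1, 440.7 and 789.9 and untreated wild-type cells 1171, 846.5 and 1153, without overlap. LPS raised Osm by 2.44 in knockout (SE 0.43, limma adjusted p = 7.18e-04) and 2.20 in wild type (SE 0.43, limma adjusted p = 0.00216). The knockout response was 3.09 without LPS-treated knockout replicate 2 and 2.87 without both knockout replicate 2 arrays (limma adjusted p = 2.69e-06). The genotype difference was not called with LPS (-0.58, 95% interval -1.51 to 0.36, limma adjusted p = 0.513) or without (-0.81, 95% interval -1.75 to 0.12, limma adjusted p = 0.629). Leaving out the knockout replicate 2 arrays turned the LPS value to 0.07 (limma adjusted p = 0.873), while the untreated value was -0.60 (limma adjusted p = 0.291). Unlike Lif, its neighbour Osm thus had no call between genotypes in any of these fits, and a difference between both genes was not tested.

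Il11 encodes interleukin-11, a cytokine best known from stromal cells, and it was dim throughout. On the 12 arrays it read 67.8 to 91.5, each time below the olfactory receptor yardstick. LPS-treated intensities were 88.9, 81.7 and 91.5 in knockout, against 89.1, 80.3 and 81.3 in wild type. Untreated ones were 70.4, 67.8 and 68.7 in knockout cells and 69.9, 76.5 and 71.3 in wild-type cells, below the LPS-treated values of both genotypes. The LPS difference was 0.34 in knockout (SE 0.07, limma adjusted p = 0.00253) and 0.20 in wild type (SE 0.07, limma adjusted p = 0.0546). Centring each array on its 75th percentile moved the median of all genes to 0.28 and 0.19 in these comparisons, which is close to the size of the Il11 values. The genotypes differed by 0.06 with LPS (95% interval -0.09 to 0.22) and by -0.07 without (95% interval -0.23 to 0.08).

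**Figure D1:**
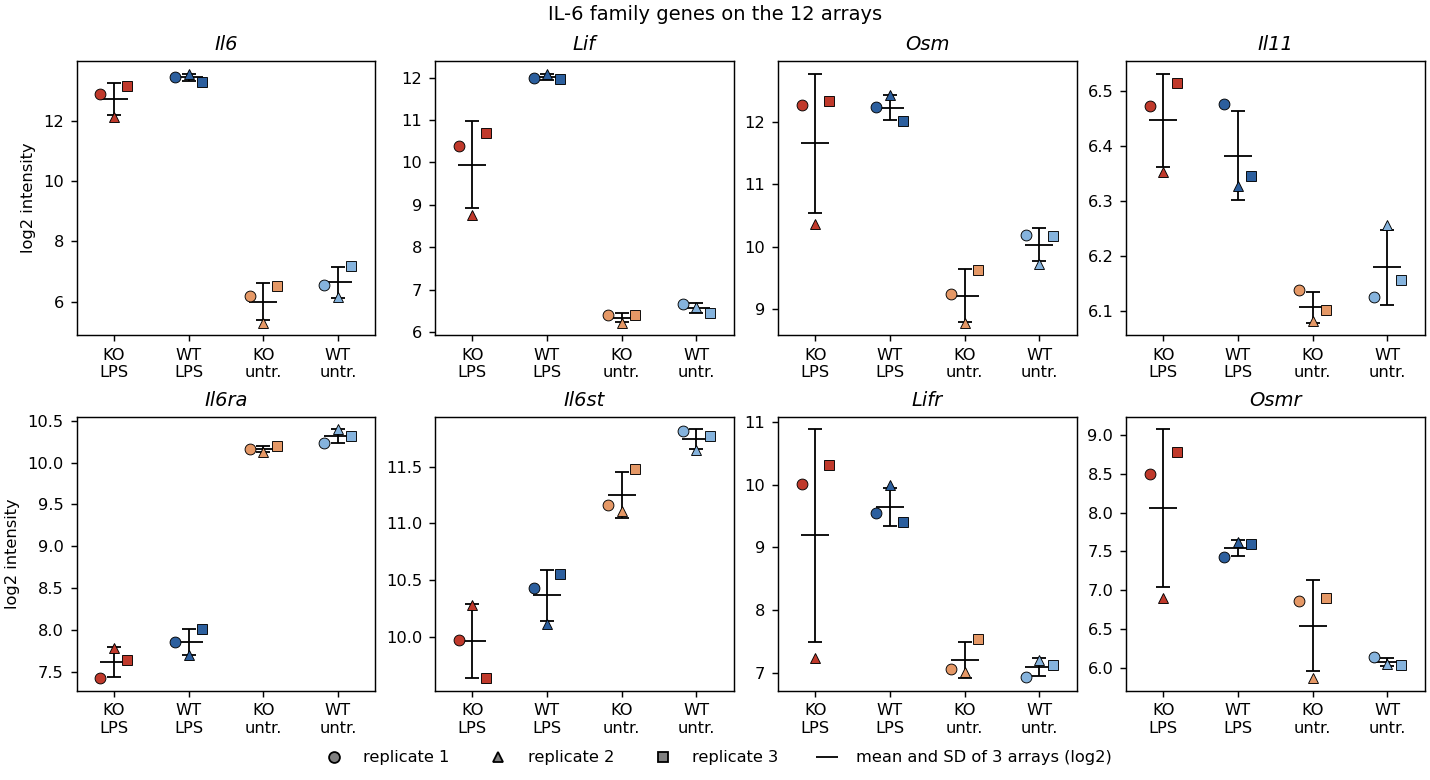
Log2 intensity of the 8 genes on each array (vertical axes differ by gene), with the knockout (KO) left of the wild-type (WT) group within each treatment. Symbols give the replicate number and bars the mean and SD of 3 arrays. LPS-treated knockout replicate 2 sits far below the other LPS-treated arrays at Lif, Osm and Lifr. At Osmr it sits far below the other LPS-treated knockout arrays and less far below the wild-type ones. Il6ra and Il6st are lower with LPS in both genotypes.

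Among receptor genes, Il6ra encodes the alpha chain that gives a cell its own response to IL-6. It read 171.3, 219.4 and 199.5 in LPS-treated knockout cells, against 1149, 1122 and 1174 in untreated knockout cells. Wild-type values were 231.2, 208.3 and 258.6 with LPS and 1210, 1352 and 1279 without. The gene fell by 2.55 on the log2 scale in knockout (SE 0.10, limma adjusted p = 2.41e-08), to a level 5.87-fold lower. In wild type it fell by 2.46 (SE 0.10, limma adjusted p = 3.15e-08), or 5.52-fold. Genotype differences were -0.24 with LPS (95% interval -0.47 to -0.02, limma adjusted p = 0.182) and -0.16 without (95% interval -0.38 to 0.07, limma adjusted p = 0.701), neither of them called. Without both knockout replicate 2 arrays they were -0.33 (limma adjusted p = 0.0924) and -0.14 (limma adjusted p = 0.776), and the knockout response was -2.65 (limma adjusted p = 1.87e-07). With array weights the LPS value was -0.30 and passed (limma adjusted p = 0.0283).

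Il6st encodes gp130, the chain shared by the whole family. LPS-treated knockout cells read 1004, 1243 and 793.2 and untreated ones 2286, 2208 and 2853. LPS-treated wild-type cells read 1378, 1104 and 1501 and untreated ones 3601, 3209 and 3497. Il6st fell by 1.29 in knockout (SE 0.16, limma adjusted p = 7.11e-05) and by 1.38 in wild type (SE 0.16, limma adjusted p = 6.47e-05). Untreated knockout arrays all lay below the wild-type ones, whereas the LPS-treated arrays overlapped. The genotype difference was -0.50 without LPS (95% interval -0.85 to -0.14, limma adjusted p = 0.43) and -0.40 with LPS (95% interval -0.76 to -0.04, limma adjusted p = 0.17). Without both knockout replicate 2 arrays the LPS value was -0.56 and passed (SE 0.15, limma adjusted p = 0.0482), and without the LPS-treated one alone it did not (limma adjusted p = 0.0532). With array weights it was -0.50 and passed (limma adjusted p = 0.0171).

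Lifr encodes the LIF receptor chain, which also serves other family ligands together with gp130. LPS-treated knockout cells had intensities of 1031, 151.4 and 1276, and LPS-treated wild-type cells 746.3, 1015 and 674.5. Untreated levels were 134.0, 128.3 and 185.1 in knockout, against 121.5, 147.9 and 140.0 in wild type. LPS-treated knockout replicate 2 therefore lay inside the untreated range, at 13.1% of the mean of the other 2 replicates, which both exceeded every wild-type array. LPS raised Lifr by 1.99 in knockout (SE 0.60, limma adjusted p = 0.0182) and by 2.56 in wild type (SE 0.60, limma adjusted p = 0.00706). The knockout call was lost without LPS replicate 1 (1.58), LPS replicate 3 (1.43), untreated replicate 1 (1.92) or untreated replicate 2 (1.89), at limma adjusted p from 0.05 to 0.0728, and it was 2.86 without both knockout replicate 2 arrays (limma adjusted p = 4.74e-06). Between genotypes the LPS value was -0.45 (95% interval -1.76 to 0.86, limma adjusted p = 0.76) and turned to 0.52 without the knockout replicate 2 arrays (95% interval 0.10 to 0.94, limma adjusted p = 0.126).

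Osmr encodes the chain that pairs with gp130 to bind oncostatin M. It read 360.2, 119.8 and 440.2 in LPS-treated knockout cells, against 172.5, 196.9 and 193.2 in LPS-treated wild-type cells. Without LPS the values were 116.3, 58.5 and 119.5 in knockout, against 70.7, 66.6 and 65.7 in wild type. In both treatments knockout replicates 1 and 3 lay above every wild-type array and knockout replicate 2 lay below every one. The lowest LPS-treated knockout value, 119.8, was barely above the highest untreated one, 119.5. LPS raised Osmr by 1.51 in knockout (SE 0.40, limma adjusted p = 0.0098) and by 1.47 in wild type (SE 0.40, limma adjusted p = 0.017). The knockout response was 2.09 without LPS-treated knockout replicate 2, 1.15 without replicate 3 and 1.76 without both replicate 2 arrays (limma adjusted p = 2.04e-06). The wild-type call was lost without LPS-treated wild-type replicate 2 (1.43, limma adjusted p = 0.051) or untreated wild-type replicate 3 (1.45, limma adjusted p = 0.0516).

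Over all 12 arrays the genotype difference of Osmr was not called, at 0.51 with LPS (95% interval -0.37 to 1.39, limma adjusted p = 0.548) and 0.46 without (95% interval -0.42 to 1.35, limma adjusted p = 0.767). Without both knockout replicate 2 arrays, which leaves 2 knockout arrays a group, it passed: 1.09 in LPS-treated cells (SE 0.10, limma adjusted p = 1.73e-04), 0.80 in untreated cells (SE 0.10, limma adjusted p = 0.00631). That setting was chosen after seeing the data, and the SE was 0.40 over all 12 arrays. With LPS, Osmr also passed with array weights (0.86, limma adjusted p = 0.0442). It passed without LPS-treated knockout replicate 2 alone (1.09, limma adjusted p = 0.0266), and in the other 11 fits that left out 1 array it was not called. The untreated value sets dim signals against each other, since untreated wild-type Osmr was below the olfactory receptor yardstick. The summed mast cell markers given above were also higher on knockout replicates 1 and 3 than on knockout replicate 2 and on the wild-type arrays, in both treatments. Within that list Mcpt4 averaged 333.4 and 92.6 in LPS-treated knockout and wild-type cells, while the defining marker Fcer1a averaged 34.3 and 30.3. The part of mast cell RNA in the Osmr values was not tested. Among mesothelial and fibroblast markers, Pdpn, which macrophages can express too, read 6159, 368.0 and 6127 in LPS-treated knockout cells and 5877, 7284 and 6266 in wild-type cells, so it stood low on knockout replicate 2 like Lifr and Osmr. The other 7 markers of that list summed to 861 to 989 and 977 to 1056 in these groups, with knockout replicate 2 at 989. Within that sum Dcn, a fibroblast marker, read 69.6, 85.3 and 82.8 in LPS-treated knockout cells, against 184.9, 164.3 and 111.2 in wild-type cells. Of all 8 markers 6 had negative and 2 positive differences there, with 1 called lower (4.87% of all genes). Their part in the results was not tested. By RefSeq gene order, 3 predicted and 0 protein-coding genes separate Osmr from Lifr.

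**Figure D2:**
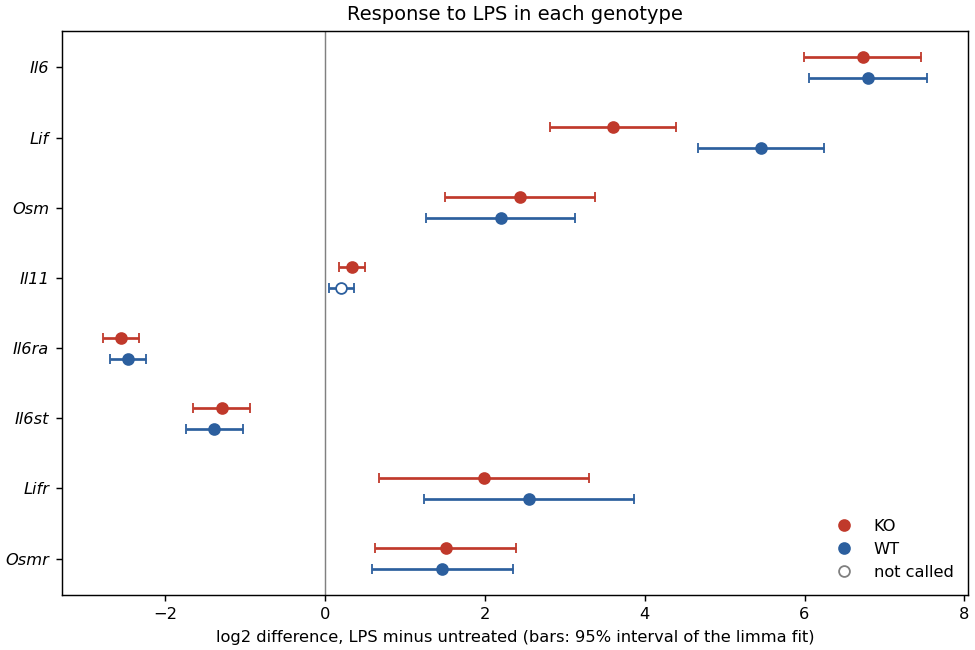
Log2 difference of LPS-treated minus untreated arrays for the 8 genes, with knockout (KO) above wild type (WT), 3 arrays a group, and bars for the 95% interval of the limma fit. Filled symbols passed at adjusted p under 0.05. Lif has the widest gap between genotypes, 3.61 in knockout and 5.45 in wild type, and Il6 the highest values.

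Between LPS-treated genotypes, 1 of the 8 genes was called, Lif, which was lower in knockout. Over all genes tested 8.14% were called, 3.28% higher and 4.87% lower, which is near the share of the family. The median of the 8 was -0.43, against -0.01 over all genes. Il6 and Lif had knockout arrays that all lay below the wild-type arrays, as did 14.2% of all genes, and 0 of the 8 had the reverse (10.3% of all genes, 24.5% in either direction). Without both knockout replicate 2 arrays 3 of the 8 were called, Lif and Il6st lower and Osmr higher, where 8.07% of all genes were called.

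Without LPS, limma called 0 of the 8 genes between genotypes (1 at an unadjusted p under 0.05, Il6st), where 0.0752% of all genes were called (0.0351% higher, 0.0401% lower). Knockout arrays lay entirely below wild-type arrays for Lif, Osm, Il6ra and Il6st, as they did for 11.5% of all genes, and lay entirely above for 0 of the 8 (4.88% of all genes, 16.3% in either direction). Osmr alone was called without both knockout replicate 2 arrays (0.406% of all genes). For the difference of LPS responses, limma called 0 of the 8 (1 at an unadjusted p under 0.05, Lif), with 0.747% of all genes called (0.301% higher, 0.446% lower), and Lif alone without those arrays (0.903% of all genes). The comparisons share arrays: each LPS-treated group enters both a genotype comparison and an LPS comparison.

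**Figure D3:**
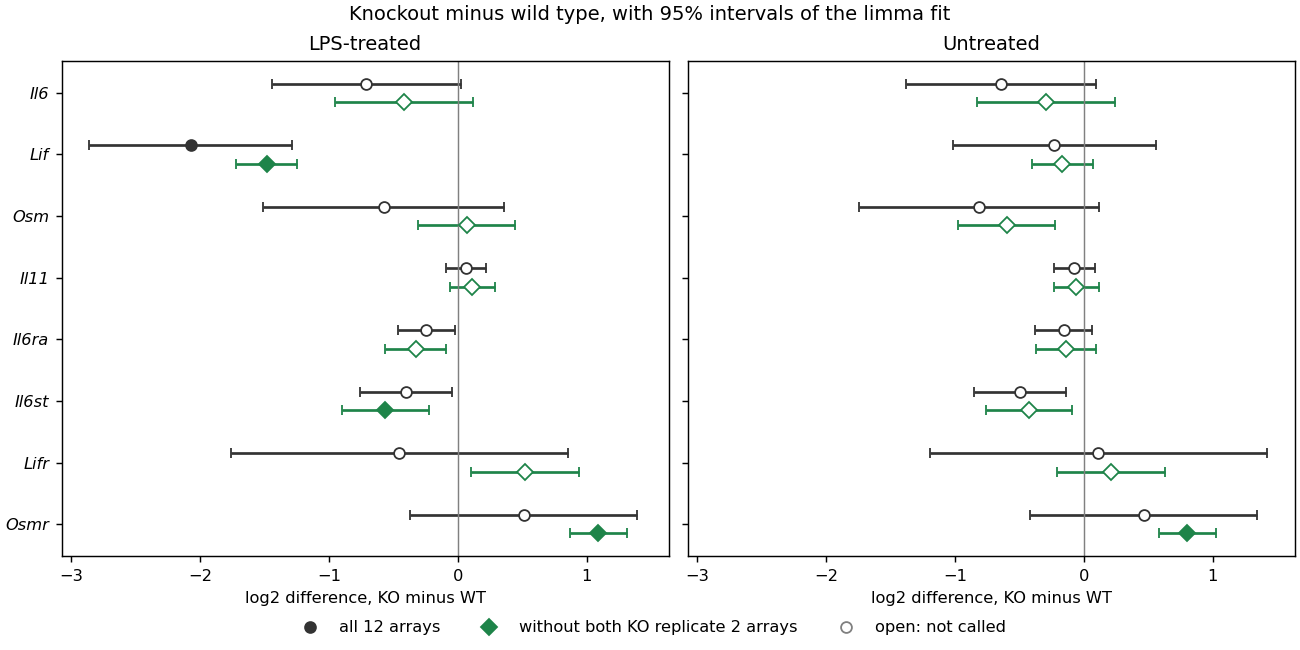
Log2 difference of knockout (KO) minus wild type (WT) for the 8 genes, with LPS on the left and untreated on the right. Circles use all 12 arrays, diamonds leave out both knockout replicate 2 arrays, bars are 95% intervals of the limma fit, and filled symbols passed at adjusted p under 0.05. Lif lies below 0 with LPS in both fits, while Osm and Lifr change sign.

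The levels of each gene had an order over the 4 groups. Il6 and Lif ran from LPS-treated wild type through LPS-treated knockout and untreated wild type to untreated knockout, and of the neighbouring groups only the untreated ones of Il6 overlapped. For Osm the order was the same by mean, with overlap between both LPS-treated groups. Il6ra and Il6st ran from untreated wild type through untreated knockout and LPS-treated wild type to LPS-treated knockout, with overlap between the LPS-treated groups alone. Osmr was highest in LPS-treated knockout cells, followed by LPS-treated wild type, untreated knockout and untreated wild type. Lifr had the same order by mean intensity, at 819.4 in LPS-treated knockout and 811.9 in LPS-treated wild type, but on the log2 scale of the tests LPS-treated wild type was higher (9.19 in knockout, 9.64 in wild type). For both genes the genotypes overlapped within each treatment, and the LPS-treated wild-type arrays lay above the untreated knockout arrays. Il11 ran from LPS-treated knockout through LPS-treated and untreated wild type to untreated knockout, with overlap of genotypes within each treatment.

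Genes with a like pattern were sought by the root-mean-square difference of log2 intensity over the 12 arrays, after subtracting each gene's own mean. Nearest to Il6 were Tpbpa (0.77), Il23a (0.86) and Ereg (0.92), against a spread of Il6 about its own mean of 3.42. Lif had Hdc, which encodes histidine decarboxylase (0.49), U90926 (0.53) and Phlda1 (0.53) nearest, with a spread of its own of 2.42. Closest to Osm stood Tmtc2 (0.28), the lipid droplet gene Hilpda (0.35) and the cytokine gene Il10 (0.37), and closest to Lifr stood Mpp7 (0.30), Tmtc2 (0.37) and the polyamine enzyme gene Odc1 (0.38), against spreads of 1.31 and 1.35. As these genes were picked over the same 12 arrays, their values on single arrays are a description only. Hilpda read 3790, 794.2 and 4433 in LPS-treated knockout, against 3704, 3984 and 2833 in LPS-treated wild type, and Il10 read 431.2, 75.4 and 281.0, against 273.1, 432.7 and 230.0. Il6ra was nearest to Arhgap45 (0.15), Krt80 (0.16) and Slc17a5 (0.20), Il6st to Tbl1xr1 (0.15), Tmem65 (0.15) and Crtc3 (0.16), and Osmr to Icam2 (0.32), F11r (0.33) and Gfpt2 (0.34). The spreads of these receptor genes were 1.26, 0.73 and 0.92. The nearest genes to Il11, whose spread was 0.15, were Btnl2 (0.03), Plpp4 (0.04) and Rp1l1 (0.04).

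Other cytokines and receptors of the gp130 family gave 9 measured genes of 13 listed. In knockout cells 4 rose with LPS and 0 fell, and in wild-type cells 3 rose and 0 fell, where 45.7% and 28.1% of all genes were called. Il27, which encodes a subunit of interleukin-27, rose by 4.04 in knockout and 2.59 in wild type. Clcf1, which encodes a ligand of the CNTF receptor, rose by 1.05 and 1.30. Ctf2 rose by 0.32 in knockout and had 0.04 in wild type, not called. Ebi3, which encodes the partner subunit of interleukin-27, rose by 0.84 in wild type and had 0.27 in knockout, not called. With LPS, Il27 read 3592, 5047 and 5161 in knockout against 1571, 2630 and 916.6 in wild type (1.54, SE 0.32, limma adjusted p = 0.0133). Ebi3 was lower, at 932.4, 726.4 and 947.7 in knockout against 1242, 1250 and 1508 in wild type (-0.62, SE 0.11, limma adjusted p = 0.00554). These 2 were the genes of the list called in this comparison, where 8.14% of all genes were called. The groups did not overlap for either subunit. In the list 2 genes lay entirely higher and 1 entirely lower in knockout, where 24.5% of all genes did not overlap. With only the 6 arrays compared, both calls were lost (limma adjusted p = 0.0806 for Il27 and 0.066 for Ebi3).

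JAK-STAT signalling genes (16 of 17 measured) moved both ways with LPS, 5 higher and 5 lower in knockout and 5 higher and 6 lower in wild type, against 45.7% and 28.1% of all genes called. Socs3 is in this list and in that of STAT3 targets. Jak2, which encodes a kinase bound to cytokine receptors, rose by 2.01 in knockout and 2.11 in wild type. Cish rose by 2.08 and 1.30 and Socs1 by 1.30 and 1.42, and both encode inhibitors of this signalling. Stat3 itself was not called in any comparison, and it read 4114, 2963 and 4633 in LPS-treated knockout cells against 3944, 4680 and 4097 in wild-type cells. Between LPS-treated genotypes, where 8.14% of all genes were called, 3 were lower and 1 higher in knockout, namely Stat5a (-0.73), Stat5b (-0.48), the phosphatase gene Ptpn6 (-0.65) and Tyk2 (0.45), the last named after its value was seen. The calls of Stat5a and Stat5b held in all 12 fits that left out 1 array. That of Ptpn6 was lost in 5 of them, without replicate 1 or 3 of either LPS-treated group or untreated wild-type replicate 3 (limma adjusted p up to 0.144). That of Tyk2 was lost without LPS-treated knockout replicate 2 or wild-type replicate 1 or 2 (limma adjusted p up to 0.112), so the count was 2 without wild-type replicate 1.

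STAT3 target genes (16 of 16 measured) rose in 5 cases and fell in 1 in knockout cells with LPS, and rose in 4 and fell in 1 in wild-type cells, where 45.7% and 28.1% of all genes were called. The kinase gene Pim1 rose by 1.99 in knockout and 1.23 in wild type. Junb rose by 1.58 and 0.97, Socs3 by 1.13 and 1.18 and Il1rn, which encodes the IL-1 receptor antagonist, by 1.21 and 1.03. Bcl6 rose by 1.40 in knockout and had 0.20 in wild type, not called. Between LPS-treated genotypes 1 was higher and 1 lower, against 8.14% of all genes called. Bcl6, which encodes a transcriptional repressor, read 1291, 1435 and 1646 in knockout against 303.9, 421.1 and 311.7 in wild type (2.09, SE 0.24, limma adjusted p = 4.84e-04). Il4ra, the interleukin-4 receptor gene, read 1389, 1346 and 1412 against 2948, 2971 and 3032 (-1.11, SE 0.19, limma adjusted p = 0.00571). Without LPS, Bcl6 read 601.7, 634.4 and 430.4 in knockout against 390.4, 336.3 and 198.6 in wild type. Untreated Il4ra read 3578, 1953 and 3915 against 4476, 4412 and 4379. Neither was called there, although the groups did not overlap for either gene (16.3% of all genes). Between LPS-treated genotypes, 5 of the 16 were called without both knockout replicate 2 arrays (8.07% of all genes) and 4 without the LPS-treated one alone.

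Of 13 genes that act on the Il6 promoter or mRNA, 8 rose and 3 fell with LPS in knockout cells, and 6 rose and 1 fell in wild-type cells, where 45.7% and 28.1% of all genes were called. Zc3h12a, which encodes Regnase-1, a nuclease that degrades Il6 mRNA, rose by 1.80 in knockout and 2.14 in wild type. Zfp36l2 fell by 1.15 in knockout and 1.63 in wild type. Zfp36l1 fell by 1.66 in knockout and had -0.35 in wild type, not called, and both encode proteins that bind AU-rich mRNA. Besides Nfkbiz (-1.17), LPS-treated knockout cells had lower Zfp36l1 (-1.84, SE 0.41, limma adjusted p = 0.0191) and lower Cebpd, which encodes C/EBPδ (-0.94, SE 0.11, limma adjusted p = 6.27e-04). Zfp36, which encodes tristetraprolin (0.73), and Zfp36l2 (0.56) were higher, both named after their values were seen. Cebpd read 111.7, 102.7 and 100.1 in knockout against 192.8, 183.6 and 228.7 in wild type, without overlap. The count of 5 of 13 (8.14% of all genes called) includes Nfkbiz, the targeted gene itself, whose call follows from the design. This count was 2 without LPS-treated wild-type replicate 1 or 3, since the calls of Zfp36l1, Zfp36 and Zfp36l2 were lost (limma adjusted p up to 0.0746, 0.0719 and 0.0535). Zfp36l1, at 622.1, 178.1 and 603.5 in knockout against 1304, 1490 and 1593 in wild type, was -1.25 without LPS-treated knockout replicate 2.

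Of 4 genes for shedding of the IL-6 receptor from the cell surface, Rhbdf2, which encodes iRhom2, rose with LPS by 1.23 in knockout and 1.24 in wild type. The protease gene Adam10 fell by 0.74 and 0.68, where 45.7% and 28.1% of all genes were called. Rhbdf1 rose by 0.46 in knockout and had 0.22 in wild type, not called. Adam17 fell by 0.38 in wild type and had -0.15 in knockout, not called, and the wild-type call was absent from 8 of 12 leave-one-out fits, under both other scalings and with a replicate block (limma adjusted p = 0.0519). Limma called 0 of the 4 between LPS-treated genotypes, where 8.14% of all genes were called. At an unadjusted p under 0.05 in limma there were 2 of the 4, and 4385 of all 19938 genes. Under either other scaling 1 of the 4 was called, and the share of all genes there is not given here. Without LPS, where 0.0752% of all genes were called between genotypes, Nfkbiz was the 1 gene called in these lists (-0.65, limma adjusted p = 0.0401). That call was not made in 8 of the 12 leave-one-out fits (limma adjusted p up to 0.141). For the difference of LPS responses, 0 genes in these lists were called over all 12 arrays, where 0.747% of all genes were called. With a replicate block across all groups 1 regulator was called there. With same-numbered LPS-treated and untreated arrays paired within each genotype, 3 were: Cebpd (-0.76), Zfp36 (0.98) and Zfp36l1 (-1.31), at limma adjusted p of 0.0348, 0.0355 and 0.0425. The share of all genes called with either block is not given here.

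**Figure D4:**
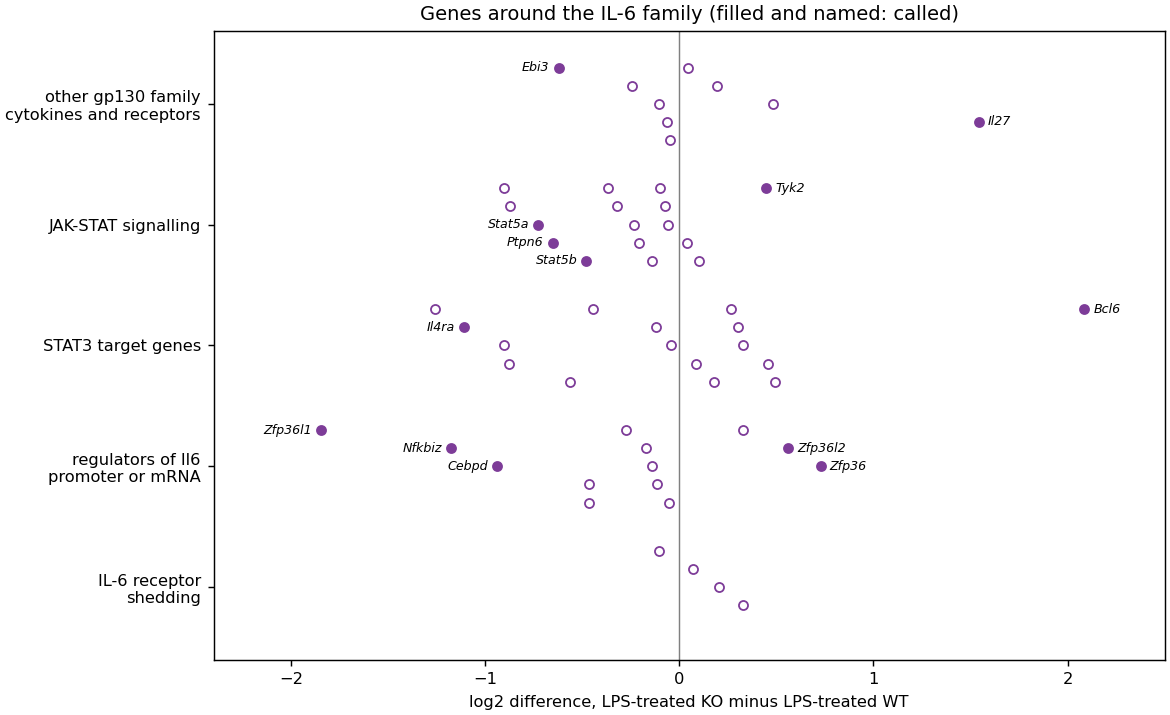
Log2 difference of LPS-treated knockout minus LPS-treated wild type for each measured gene of the 5 lists, 1 point a gene, spread vertically for legibility. Filled, named points passed at adjusted p under 0.05. Bcl6 (2.09) and Il27 (1.54) lie farthest above 0 and Zfp36l1 (-1.84) farthest below.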

How the data were processed

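The authors deposited 1 linear intensity per probe set and array. The submitters' processing notes name RMA and Affymetrix Expression Console 1.1, without settings. Log2 was taken without a pseudocount. Array medians lay between 110.4 and 118.7, no arrays held identical values, and the number of arrays limits precision. Of 35556 probe sets, 21789 had 1 gene symbol, and the brightest per gene left 19938 genes, named through RefSeq.

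Tests used limma 3.58.1 under R 4.3.3 (moderated linear models, two-sided, 4 group means, 8 residual degrees of freedom), adjusted by Benjamini-Hochberg over all genes and called under 0.05. The procedure was tested on simulated data with independent noise and effects placed in genes brighter than the median. That test does not cover correlated or deviating arrays, or dim genes. Members, lists and naming rule (family genes throughout, up to 3 called genes of each list per comparison, the 3 genes nearest in pattern) were chosen with earlier results of these data known. The file holds no detection call, so olfactory receptor genes served as a dim yardstick.

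Replicate numbers are in the titles. Deviations of same-numbered arrays correlated at 0.32, 0.57 and 0.46 between knockout treatments, and at -0.07, 0.14 and 0.36 between wild-type treatments. The main fit did not pair them, so its p-values treat all arrays as independent. Pairing within genotype was an alternative added after seeing the data. Of all 18 same-numbered pairs across groups, 5 exceeded 0.1. Alternatives were other scalings, a filter on dim genes, a replicate block, array weights, trend with robust variance, every probe set, 6-array fits, a pseudocount of 16, a threshold of 0.01 and leaving out arrays. Each of the 8 genes has 1 probe set, so no other probe set could be compared.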

Additional observations from a re-analysis of the deposited data

How the results depend on the processing

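The count of the 8 genes called between LPS-treated genotypes, 1, became 4 with array weights, 3 without both knockout replicate 2 arrays, and 0 with only the 6 arrays compared (2 at an unadjusted p under 0.05 in limma). With array weights the 4 were Lif, Il6ra and Il6st, lower in knockout, and Osmr, higher in knockout. Leaving out 1 array gave 1 to 2, the 2 being Lif and Osmr without LPS-treated knockout replicate 2. Between untreated genotypes the count was 0 in each of these fits except 1 without both knockout replicate 2 arrays, a setting chosen after seeing the data. For the difference of LPS responses it was 1 with array weights, 1 without both arrays, and 0 to 1 on leaving out 1 array. The LPS counts, 8 in knockout and 7 in wild type, kept within 7 to 8 and 6 to 8 on leaving out 1 array. With only the 6 arrays compared, the knockout count was 6, without Lifr (limma adjusted p = 0.0721) and Osmr (limma adjusted p = 0.0519). Apart from the fits without both knockout replicate 2 arrays, the shares of all genes called under these settings are not given here. From the family counts alone, a general shift in calls under a setting cannot be told apart from one of the family. The causes were not tested.

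A replicate block left the counts at 1 and 0 between genotypes with and without LPS, 8 and 7 for LPS in knockout and wild type, and 0 for the difference of responses. A replicate block within genotype, added after seeing the data, also left 8, 7 and 0, and changed no call of the 8 genes. It gave the Lif difference of responses an adjusted p of 0.0512 (limma). The Nfkbiz difference without LPS missed the threshold under the replicate block (limma adjusted p = 0.0614), as did Ptpn6 with LPS (limma adjusted p = 0.0546). Paired within genotype, 8 of the 16 STAT3 targets were called for LPS in wild type, against 5 without the block. Shares of all genes called with either block are likewise not given here.

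Lif between LPS-treated genotypes ranged from -2.44 to -1.48 on leaving out 1 array, called each time, and missed the threshold with the 6 arrays compared (-2.07, limma adjusted p = 0.0699). Signs turned for values that were not called. With array weights, Lifr was 0.0686 between LPS-treated genotypes, and for the difference of responses Lifr was 0.013 and Il6st -0.0069. Without both knockout replicate 2 arrays, Osm was 0.0711 and Lifr 0.52 between LPS-treated genotypes, and the differences of responses were -0.13 for Il6st and 0.31 for Lifr. On leaving out 1 array or both knockout replicate 2 arrays, values between LPS-treated genotypes ran from -0.91 to 0.0711 for Osm and -1.02 to 0.52 for Lifr, and Lifr between untreated genotypes from -0.0531 to 0.21. Differences of responses ran from -0.42 to 0.23 for Il6, -0.10 to 0.89 for Osm, -0.19 to 0.00783 for Il6ra, -0.13 to 0.26 for Il6st, -1.13 to 0.41 for Lifr and -0.31 to 0.62 for Osmr. Neither scaling alternative turned a sign among the 8 genes. Il11 in wild type passed with centring on the 75th percentile (0.36, limma adjusted p = 0.00556), with trend and robust estimation (0.0472), array weights (0.00165), a pseudocount of 16 (0.049) and without LPS-treated knockout replicate 2 (0.0456). Under that centring the share of higher calls over all genes was 72.8% against 34.0% in wild type, 76.6% against 47.9% in knockout and 52.6% against 40.2% between LPS-treated genotypes. Quantile normalization gave 44.5% in wild type.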
